A study of Mus musculus with 6 samples.

Results

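The genes described here encode the subunits of the BAF chromatin remodelling complex that are exchanged when neural progenitors become neurons. They were chosen by gene symbol as 10 rows of a count table of 53801 genes: Smarca2, Smarca4, Smarcc1, Smarcc2, Actl6a, Actl6b, Phf10, Dpf1, Dpf3 and Ss18l1. All 10 were measured in the whole brain of 6 C57BL/6 mouse embryos at embryonic day E16.5. Of these embryos, 3 were homozygous null for Bahd1 (Bahd1-/-, Bahd1-KO) and 3 were wild type (Bahd1+/+, Bahd1-WT). Bahd1 encodes a bromo-adjacent homology domain protein of repressive chromatin. The deletion was constitutive, so that every cell of the embryo lacked the gene, and the embryos came from matings of heterozygous mice. No embryo received a treatment. The comparison asked whether the embryonic brain without Bahd1 contained a different set of BAF transcripts.

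BAF complexes use ATP to slide or eject nucleosomes, and they are built from many subunits, several of which can be filled by either of a pair of related proteins. In dividing neural progenitors the complex holds the actin-like protein Actl6a (BAF53a), the PHD finger protein Phf10 (BAF45a) and Ss18. As cells leave the cycle these are replaced by Actl6b (BAF53b), Dpf1 or Dpf3 (BAF45b or BAF45c) and Ss18l1 (CREST). The ATPases Smarca4 (BRG1) and Smarca2 (BRM), and the scaffold proteins Smarcc1 (BAF155) and Smarcc2 (BAF170), change more in proportion than in kind. Smarca4 is present in progenitors and neurons alike. It was grouped here with the progenitor subunits as the counterpart of Smarca2. In developing neurons, the microRNAs miR-9* and miR-124 repress Actl6a, and the repressor REST holds those microRNA genes down outside neurons.

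The site through which miR-9* (now named miR-9-3p) is described to act on Actl6a can be read in the reference. The mature sequences of both arms of miR-9 are shown for their seeds, bases 2 to 8, in capitals, and the stretch of the Actl6a 3′ UTR is shown for the complement of the miR-9-3p seed, also in capitals. The microRNA sequences are RefSeq entries of GRCm38.p6, identical for the genes Mir9-1 (chromosome 3), Mir9-2 (chromosome 13) and Mir9-3 (chromosome 7).
miR-9-3p: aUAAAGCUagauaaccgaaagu
miR-9-5p: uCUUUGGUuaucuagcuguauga
Actl6a 3′ UTR: ctcaacgtctgtAGCTTTAgtacactcag
The Actl6a stretch lies on the plus strand at chr3:32726628-32726656 of GRCm38. Its seed match begins at position 38 of the 371-base 3′ UTR of transcript Actl6a-201. It is the 1 match to AGCTTTA in that UTR, and 2.39% of 1798 UTRs of similar length hold this motif. ACCAAAG, the complement of the miR-9-5p seed, was not among the letters of this UTR, and 3.45% of the same UTRs hold it. These are matches of letters on the transcribed strand and not measured sites of action.

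Promoter sequences, 300 bases around each RefSeq start in GRCm38.p6, were found for all 10 genes. Those of Actl6a, Actl6b, Dpf1 and Ss18l1 are shown because the transcripts of the last 3 lay furthest below the other embryos in 1 library, Bahd1-KO replicate 3, while Actl6a, the counterpart of Actl6b, was close to them there. Capitals mark the GC box, GGGCGG on either strand (CCGCCC when read on the other strand), and neighbouring matches may overlap.
Actl6a, chr3:32708296-32708595, plus strand: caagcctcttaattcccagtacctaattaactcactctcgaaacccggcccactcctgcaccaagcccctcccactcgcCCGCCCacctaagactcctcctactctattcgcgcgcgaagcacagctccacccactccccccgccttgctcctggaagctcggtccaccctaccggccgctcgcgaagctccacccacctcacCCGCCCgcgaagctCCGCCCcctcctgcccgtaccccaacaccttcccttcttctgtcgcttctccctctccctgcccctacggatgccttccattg
Actl6b, chr5:137553296-137553595, plus strand: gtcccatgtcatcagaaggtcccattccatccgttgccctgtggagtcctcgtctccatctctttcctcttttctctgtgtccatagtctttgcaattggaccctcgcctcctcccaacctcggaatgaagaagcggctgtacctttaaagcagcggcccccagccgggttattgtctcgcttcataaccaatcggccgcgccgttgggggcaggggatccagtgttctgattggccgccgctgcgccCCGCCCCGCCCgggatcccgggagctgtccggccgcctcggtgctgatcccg
Dpf1, chr7:29303755-29304054, plus strand: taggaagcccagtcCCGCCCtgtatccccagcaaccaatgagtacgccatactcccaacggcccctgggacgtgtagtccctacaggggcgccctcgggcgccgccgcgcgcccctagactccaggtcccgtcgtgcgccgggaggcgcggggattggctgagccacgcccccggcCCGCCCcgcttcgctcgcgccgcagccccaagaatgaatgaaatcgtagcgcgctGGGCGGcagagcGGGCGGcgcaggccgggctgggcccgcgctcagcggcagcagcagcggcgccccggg
Ss18l1, chr2:180042233-180042532, plus strand: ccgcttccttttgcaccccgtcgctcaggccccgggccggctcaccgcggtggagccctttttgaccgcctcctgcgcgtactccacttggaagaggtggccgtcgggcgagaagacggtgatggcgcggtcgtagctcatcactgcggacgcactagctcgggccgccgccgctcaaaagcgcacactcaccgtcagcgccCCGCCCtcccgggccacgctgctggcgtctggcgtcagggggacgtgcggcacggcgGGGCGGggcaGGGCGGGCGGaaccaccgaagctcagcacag
The RefSeq starts used for Actl6a and Smarcc1 lie inside the genes as GENCODE annotates them. The Smarcc1 window is chr9:110131774-110132073, in a gene annotated from 110117708. Each of the 10 promoters held at least 1 GC box, which 35.7% of 32851 promoters of the same length do. Their GC content ran from 55.3% (Dpf3) to 87.0% (Phf10), where the median promoter has 52.7%. CCAAT, on either strand, was found 3 times in Actl6b, 2 times in Dpf1 and 3 times in Dpf3. The other 7 promoters had no CCAAT, a motif held by 37.4% of all promoters. TATAAA, held by 13.6% of promoters, was in none of the 10, and the E-box CAGCTG, held by 16.3%, was in that of Phf10 only. These matches describe the windows and were not tested against the transcript levels.

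The 6 libraries held 61724000 to 91782802 counts in genes. Bahd1 was counted 2, 10 and 6 times in the Bahd1-KO embryos and 1971, 3102 and 3470 times in the Bahd1-WT embryos, which matched the labels. The library of Bahd1-KO replicate 3 stood apart. Dcx, a marker of young neurons, was counted 1778 times there and 188324 to 318227 times in the other 5. The summed level of 6 lung epithelium genes in that library was 1385 CPM (counts per 1000000), against 0.20 to 11.3 CPM in the other 5. There 5 measured untailed RNAs (ribosomal and small RNAs that mostly lack a poly(A) tail) also stood high, by a median of 7.58 on the log2 scale. They summed to 656990 CPM, against 2309 to 5571 CPM in the other 5. Protein-coding genes held 53.5% of the counts of that library and 97.8% to 98.4% in the other 5. Fold changes and ratios of the members are therefore given with and without this embryo. Levels are CPM after TMM scaling, which corrects for the total count and for a few dominant genes. Nothing in the sources used here says whether the embryos of a genotype shared a litter.

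In the wild type brain all 10 subunits were expressed, and their levels could be ranked only after division by exon length. Means over the 3 Bahd1-WT embryos, with SD, are given as TMM-scaled CPM per kb of exon. Smarcc2 stood highest at 94.4 ± 15.2, followed by Smarca4 at 58.0 ± 18.9. Ss18l1 at 32.3 ± 1.21 and Smarcc1 at 31.6 ± 0.575 could not be ordered, since Ss18l1 was the higher in 2 of 3 embryos. Actl6b at 20.9 ± 6.12 and Smarca2 at 20.4 ± 1.22 also changed places, Actl6b being the higher in 2 of 3 embryos. Phf10 at 18.6 ± 2.40 and Dpf1 at 17.7 ± 4.29 did so too, with Phf10 above Dpf1 in 1 of 3 embryos. Actl6a followed at 7.71 ± 2.45, and Dpf3 was lowest at 4.03 ± 0.384. The remaining neighbours kept their order in all 3 embryos. Per length, the neuronal Actl6b thus exceeded the progenitor Actl6a in each wild type brain, whereas the ATPase Smarca2 stood below Smarca4 in each. Not divided by length, Smarca2 was above Smarca4 in Bahd1-WT replicate 1, at 303 against 234 CPM, so the order of the ATPases depends on the length used.

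None of the 10 subunits passed the test for a difference between the genotypes. The edgeR quasi-likelihood test with Benjamini-Hochberg adjustment called 0 of 10 at an adjusted p under 0.05, where it called 0.00404% of 24739 genes (Bahd1 alone). No subunit had an unadjusted p under 0.05 either, which 4.67% of all genes had. DESeq2 likewise called 0 of 10 and gave 0 with an unadjusted p under 0.05. In the fit, 9 subunits had a negative and 1 a positive log2 fold change, with a median of -0.57 beside 0.06 over all genes tested. Without Bahd1-KO replicate 3 the median was -0.23 beside -0.01 for all genes, and 0 of 10 were called where 0.0171% of 23334 genes were. With 3 embryos per genotype and standard errors of 0.226 to 0.831 on the log2 scale, differences of the sizes seen here could not be told from the spread between embryos.

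**Figure D1:**
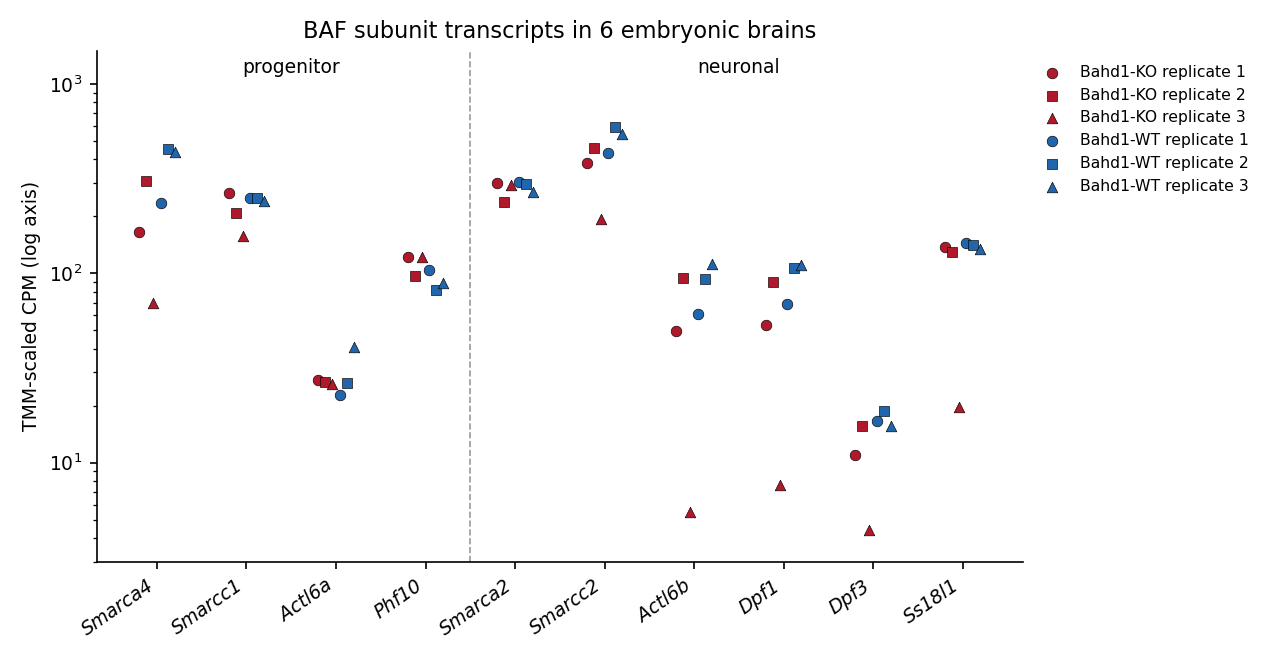
Level of each subunit transcript in each embryo, as TMM-scaled CPM on a log axis, with Bahd1-KO embryos in red and Bahd1-WT embryos in blue and the marker shape giving the replicate. The red triangle, Bahd1-KO replicate 3, lies far below the other 5 for Actl6b, Dpf1, Ss18l1, Dpf3 and Smarca4 among them for Actl6a and Smarca2, and just above them for Phf10.

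Among the subunits of progenitors, the ATPase Smarca4 (ENSMUSG00000032187, chr9:21616169-21704230, plus strand) had the largest difference of fitted means. Its level was 166, 309 and 69.6 CPM in Bahd1-KO replicates 1, 2 and 3 and 234, 456 and 436 CPM in Bahd1-WT replicates 1, 2 and 3. All 3 wild type levels were above those of Bahd1-KO replicates 1 and 3, and Bahd1-KO replicate 2 lay inside the wild type range, so the groups overlapped. The log2 fold change, Bahd1-KO minus Bahd1-WT, was -1.05 (SE 0.546, adjusted p = 0.696), and without Bahd1-KO replicate 3 it was -0.66 (SE 0.372, adjusted p = 0.981). A misc_RNA gene on the same strand shares 99 exonic bases with Smarca4, and how reads there were assigned could not be checked.

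Smarcc1 (ENSMUSG00000032481, chr9:110117708-110240178, plus strand), a scaffold of the complex, was the steadiest of the progenitor subunits in wild type. It measured 249, 251 and 242 CPM in Bahd1-WT replicates 1 to 3 and 266, 210 and 158 CPM in Bahd1-KO replicates 1 to 3. The knockout embryos lay on either side of the narrow wild type range. Between the genotypes it differed by -0.23 (SE 0.261) on the log2 scale, and by -0.07 without Bahd1-KO replicate 3.

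Actl6a (ENSMUSG00000027671, chr3:32706298-32726973, plus strand), the actin-like subunit of progenitors, hardly varied among the knockout embryos, at 27.4, 26.6 and 26.2 CPM in replicates 1 to 3. The Bahd1-WT embryos had 22.8, 26.3 and 40.7 CPM. Wild type replicate 3 stood above the other 5 embryos, wild type replicate 1 was the lowest of the 6, and wild type replicate 2 lay among the knockout values. Its log2 fold change was -0.16 (SE 0.288), the same without Bahd1-KO replicate 3, and it turned to 0.11 when Bahd1-WT replicate 3 was left out. Actl6a shares 452 exonic bases with Mrpl47 on the opposite strand, which strand-specific counting, as stated for these files, separates.

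Phf10 (ENSMUSG00000023883, chr17:14945009-14961273, minus strand), the PHD finger subunit of progenitors, was the 1 member with a positive log2 fold change. Its level was 122, 96.5 and 123 CPM in Bahd1-KO replicates 1 to 3 and 104, 81.2 and 88.5 CPM in Bahd1-WT replicates 1 to 3. Bahd1-KO replicate 2 fell between the wild type values, so that the groups overlapped. On the log2 scale the knockout was 0.32 higher in the fit (SE 0.230, adjusted p = 0.696), and 0.24 higher without Bahd1-KO replicate 3.

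All 6 neuronal subunits had a negative log2 fold change, with a median of -0.66, or -0.31 without Bahd1-KO replicate 3, and none was called in either fit. Actl6b (ENSMUSG00000029712, chr5:137553517-137569582, plus strand), the neuron-specific actin-like subunit, measured 61.1, 93.9 and 113 CPM in Bahd1-WT replicates 1 to 3. In Bahd1-KO replicates 1 to 3 it measured 49.9, 94.8 and 5.49 CPM. Replicate 3 of the knockout was by far the lowest, and knockout replicate 2 was close to wild type replicate 2. The log2 fold change of -0.83 (SE 0.831, adjusted p = 0.739) became -0.31 (SE 0.354) without replicate 3.

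Dpf1 (ENSMUSG00000030584, chr7:29303951-29318243, plus strand), a double PHD finger subunit of neurons, was likewise lowest in Bahd1-KO replicate 3. It stood at 53.5, 89.8 and 7.599 CPM in Bahd1-KO replicates 1 to 3 and at 68.8, 106 and 111 CPM in Bahd1-WT replicates 1 to 3. Knockout replicate 1 was below all wild type embryos, and knockout replicate 2 lay within the wild type range. With replicate 3 the fitted log2 fold change was -0.92 (SE 0.744, adjusted p = 0.701) and without it -0.42.

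Dpf3 (ENSMUSG00000021221, chr12:83213745-83487716, minus strand), the related subunit of neurons and of heart and skeletal muscle, was the only member whose genotypes did not overlap. The Bahd1-KO embryos had 10.9, 15.6 and 4.39 CPM and the Bahd1-WT embryos 16.7, 18.8 and 15.6 CPM. Knockout replicate 2 and wild type replicate 3 were next to each other, at 15.57 and 15.63 CPM. Of all genes tested, 2.24% were lower in every Bahd1-KO than in every Bahd1-WT embryo, and 4.39% were when Bahd1-KO replicate 3 was left out, a setting in which Dpf3 was again the only such member. In that setting 0 of 10 members were higher in every Bahd1-KO embryo, as 6.73% of genes were. For Dpf3 the fitted log2 fold change was -0.73 (SE 0.458, adjusted p = 0.696), and -0.37 (SE 0.262, adjusted p = 0.981) without replicate 3. Dpf3 was counted 237 to 1659 times in an embryo, fewer than the other members in each wild type brain.

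Ss18l1 (ENSMUSG00000039086, chr2:180042509-180070201, plus strand), the calcium-responsive transactivator of neurons, was nearly constant in 5 embryos. Bahd1-WT replicates 1 to 3 had 145, 142 and 134 CPM, and Bahd1-KO replicates 1 and 2 had 137 and 130 CPM, with an SD of 0.060 on the log2 scale over these 5. Bahd1-KO replicate 3 had 19.7 CPM. Its log2 fold change was -0.55 (SE 0.627, adjusted p = 0.768) with that embryo and -0.08 (SE 0.176) without it.

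Smarcc2 (ENSMUSG00000025369, chr10:128459248-128490482, plus strand), the scaffold that pairs with or replaces Smarcc1, had 384, 461 and 193 CPM in Bahd1-KO replicates 1 to 3 and 432, 596 and 545 CPM in Bahd1-WT replicates 1 to 3. Knockout replicate 2 exceeded wild type replicate 1, and the other 2 knockout embryos were below all wild type embryos. The fit put the log2 fold change at -0.60 (SE 0.362, adjusted p = 0.696), and at -0.32 without Bahd1-KO replicate 3. The second ATPase, Smarca2 (ENSMUSG00000024921, chr19:26605050-26778322, plus strand), showed the smallest difference, with 300, 237 and 294 CPM in Bahd1-KO replicates 1 to 3, against 303, 297 and 271 CPM in the 3 Bahd1-WT embryos. The ranges lay over each other. Its log2 fold change of -0.07 (SE 0.226) was -0.13 without Bahd1-KO replicate 3 and turned positive, to 0.13, with a correction for GC content.

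**Figure D2:**
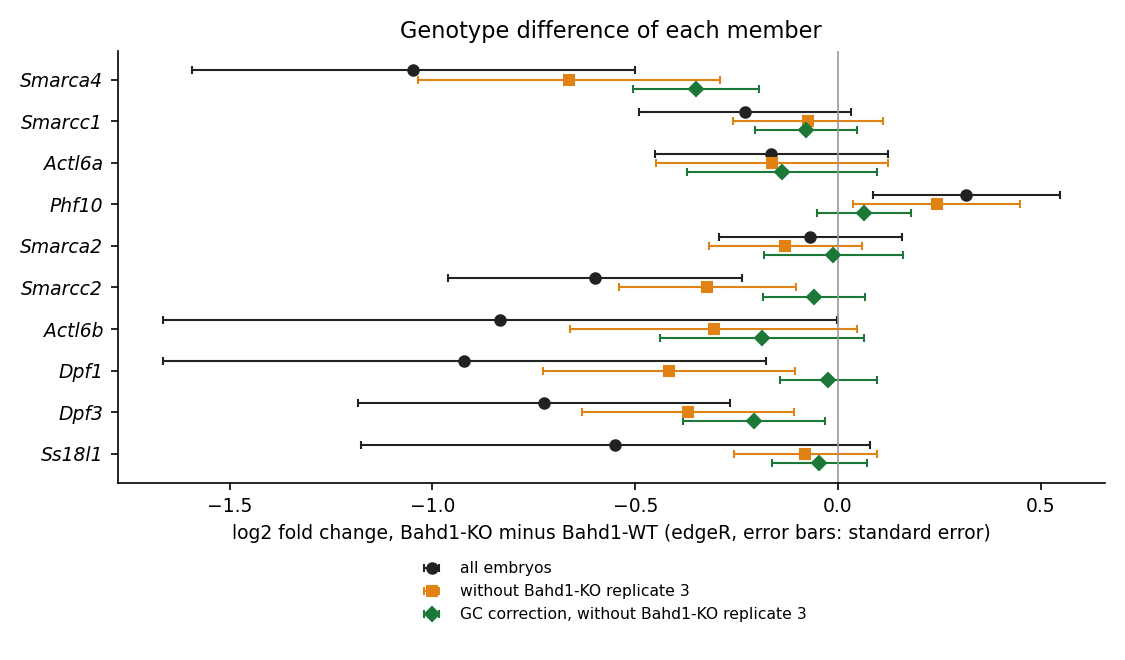
Log2 fold change of each subunit, Bahd1-KO minus Bahd1-WT, fitted by edgeR, with bars of 1 standard error, for all embryos (black circles), without Bahd1-KO replicate 3 (orange squares) and with a correction for transcript GC content and without that embryo (green diamonds). Values moved toward 0 from black to green for Smarca4 (-1.05 to -0.35), Dpf1 (-0.92 to -0.02) and Actl6b (-0.83 to -0.19), and 0 of 10 were called in any of the 3 fits.

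The balance of exchanged subunits was described by transcripts, as the ratio of a neuronal subunit to its progenitor counterpart within each embryo. Such a ratio does not depend on the scaling between libraries, but it can move with transcript GC content. It does not measure subunits in assembled complexes, and the part of the mix of cells in it was not tested. For 6 pairs, ratios are given per kb of exon, and their log2 values were compared by a two-sided exact permutation test over the 20 assignments of embryos to genotypes. This test cannot give a p below 0.1, so no pair could pass 0.05. The ratio of Actl6b to Actl6a was 1.66, 3.25 and 0.191 in Bahd1-KO replicates 1 to 3 and 2.45, 3.25 and 2.52 in Bahd1-WT replicates 1 to 3. Actl6b thus outnumbered Actl6a per length in 5 embryos, and the reverse held in Bahd1-KO replicate 3. The mean log2 ratio differed by -1.43 between the genotypes (exact p = 0.4, adjusted over the 6 pairs 0.4), and by -0.23 without that embryo (exact p = 0.9).

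For Ss18l1 to Ss18 the ratio was 5.94, 5.51 and 0.487 in Bahd1-KO replicates 1 to 3, against 7.21, 7.35 and 5.27 in the 3 Bahd1-WT embryos. This pair too was inverted in the third knockout embryo alone. The genotypes differed by -1.38 (exact p = 0.3, adjusted 0.36), and by -0.19 without it (exact p = 0.4). Ss18 itself, the progenitor counterpart, measured 50.2, 51.3 and 88.0 CPM in Bahd1-KO replicates 1 to 3, against 43.5, 41.8 and 55.3 CPM in the 3 Bahd1-WT embryos, with a log2 fold change of 0.43 (adjusted p = 0.696, edgeR) that was 0.10 without replicate 3.

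Dpf1 to Phf10 gave 0.401, 0.850 and 0.0566 in Bahd1-KO replicates 1 to 3, against 0.602, 1.197 and 1.14 in the 3 Bahd1-WT embryos. The lowest ratio was again that of Bahd1-KO replicate 3, and both embryos numbered 1 were below the remaining 3. With a correction for GC content, the embryos numbered 1 went from -1.10 to 0.12 relative to those 3 on the log2 scale. The difference was -1.80 (exact p = 0.2, adjusted 0.3), and -0.68 without Bahd1-KO replicate 3 (exact p = 0.3). Dpf3 to Phf10 was 0.104, 0.188 and 0.0417 in Bahd1-KO replicates 1 to 3, against 0.186, 0.269 and 0.206 in the 3 Bahd1-WT embryos, differing by -1.22 (exact p = 0.2, adjusted 0.3) and by -0.64 without that embryo (exact p = 0.2). Here Phf10 outnumbered Dpf3 in every brain. Dpf2, the related PHD finger subunit found in most cell types, had 38.7, 49.0 and 34.3 CPM in Bahd1-KO replicates 1 to 3, against 42.4, 62.0 and 62.0 CPM in the 3 Bahd1-WT embryos (log2 fold change -0.45, adjusted p = 0.696, edgeR, and -0.35 without Bahd1-KO replicate 3).

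The ATPases behaved otherwise. Smarca2 to Smarca4 was 0.819, 0.348 and 1.92 in Bahd1-KO replicates 1 to 3, against 0.587, 0.296 and 0.282 in the 3 Bahd1-WT embryos. The highest ratio was in Bahd1-KO replicate 3, the only embryo in which Smarca2 outnumbered Smarca4 per length. All annotated exons merged make 14269 bases for Smarca2 and 6475 for Smarca4. Without division by length the ratio was 1.80, 0.77 and 4.23 in Bahd1-KO replicates 1 to 3. In Bahd1-WT replicates 1 to 3 it was 1.29, 0.65 and 0.62, so which ATPase led depended on the length used. The difference was 1.16 (exact p = 0.2, adjusted 0.3), and 0.55 without that embryo (exact p = 0.5). Smarcc2 to Smarcc1 gave 2.04, 3.10 and 1.72 in Bahd1-KO replicates 1 to 3, against 2.45, 3.35 and 3.17 in the 3 Bahd1-WT embryos, and it differed by -0.42 (exact p = 0.2, adjusted 0.3), or -0.24 without Bahd1-KO replicate 3 (exact p = 0.5). No pair separated the genotypes.

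**Figure D3:**
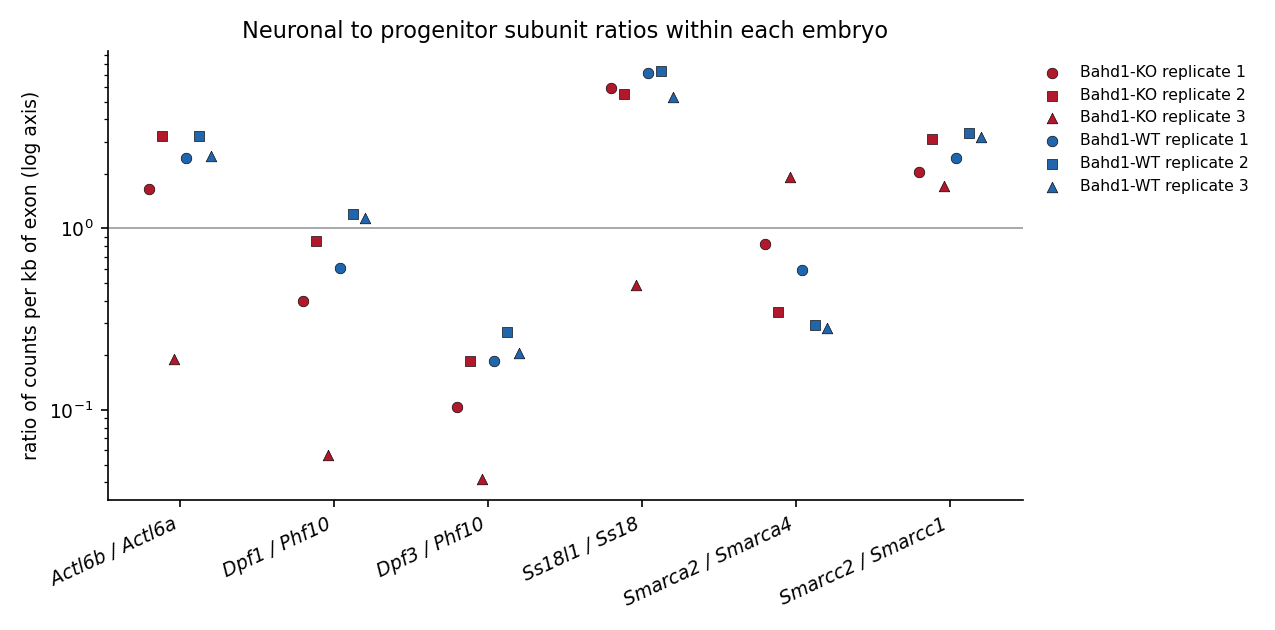
Ratio of a neuronal BAF subunit to its progenitor counterpart within each embryo, as counts per kb of exon on a log axis with a line at 1, in red for Bahd1-KO and blue for Bahd1-WT, the shape giving the replicate. Bahd1-KO replicate 3 (red triangle) is below the other 5 for Actl6b to Actl6a (0.191), Dpf1 to Phf10 (0.0566), Dpf3 to Phf10 (0.0417) and Ss18l1 to Ss18 (0.487), and above them for Smarca2 to Smarca4 (1.92).

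The subunits differed in how far Bahd1-KO replicate 3 lay from the other 5 embryos, whose levels spanned both genotypes. This embryo was singled out after its values were seen, so these figures are a description. Relative to the mean log2 level of the other 5, Actl6b was 14.4-fold lower, Dpf1 10.9-fold lower and Ss18l1 6.97-fold lower. Smarca4 was 4.30-fold lower, Dpf3 3.48-fold lower and Smarcc2 2.47-fold lower. Smarcc1 differed by -0.62 on the log2 scale, Actl6a by -0.11, Smarca2 by 0.07 and Phf10 by 0.33. Of the 10166 genes with a mean of at least 10 CPM, the median difference in this library was -0.35, and only 0.689% had a lower one than Actl6b. Differences below -1 were found for 6 of 10 members, where 25.2% of genes had one, and below -2 for 4 of 10, where 7.51% did. The 5 neuronal subunits other than Smarca2 were below -1, and of the 4 progenitor subunits only Smarca4 was.

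Most of the listed markers of neurons were low in Bahd1-KO replicate 3 along with these subunits, and those of dividing progenitors did not move as a group. The summed level of 15 neuronal genes was 3099 CPM in Bahd1-KO replicate 3 and 10078 to 12163 CPM in the other 5. Of the 15, 11 were lower and 4 higher, Snap25 among the latter, with differences up to 2.15 on the log2 scale. Their median difference was -1.66, beside -0.35 over all genes with a mean of at least 10 CPM. Of the 3 most abundant of these, Dcx, a microtubule protein of migrating neurons, had 33.0 CPM against 1865 to 3713 CPM. Map2, the microtubule protein of dendrites, had 780 CPM against 1983 to 3033 CPM, and Stmn2, a tubulin regulator of growing axons, had 95.7 CPM against 1166 to 1428 CPM. The 12 genes of dividing progenitors summed to 1648 CPM there and to 941 to 1333 CPM elsewhere, with 6 lower and 6 higher. Vim, an intermediate filament of radial glia, had 381 CPM against 210 to 337 CPM, and the proliferation genes Mki67 and Top2a had 663 and 340 CPM against at most 268 and 204 CPM. The same library had 8 of 8 skeletal muscle genes above the mean of the other 5 (summed 82.9 CPM against 2.44 to 12.1 CPM) and 7 of 8 connective tissue genes (2091 CPM against 306 to 442 CPM). Of 6 genes of the mature brain, a list written after the values were seen, 5 were above that mean, with a median difference of 3.95 on the log2 scale and a sum of 1193 CPM against 253 to 409 CPM. The 9 genes of glia had a median difference of 1.45, with 5 higher and 4 lower. The part of these other transcripts in the subunit levels was not tested. In RNA of a whole brain, fewer cells of a type and less RNA per cell cannot be told apart.

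**Figure D4:**
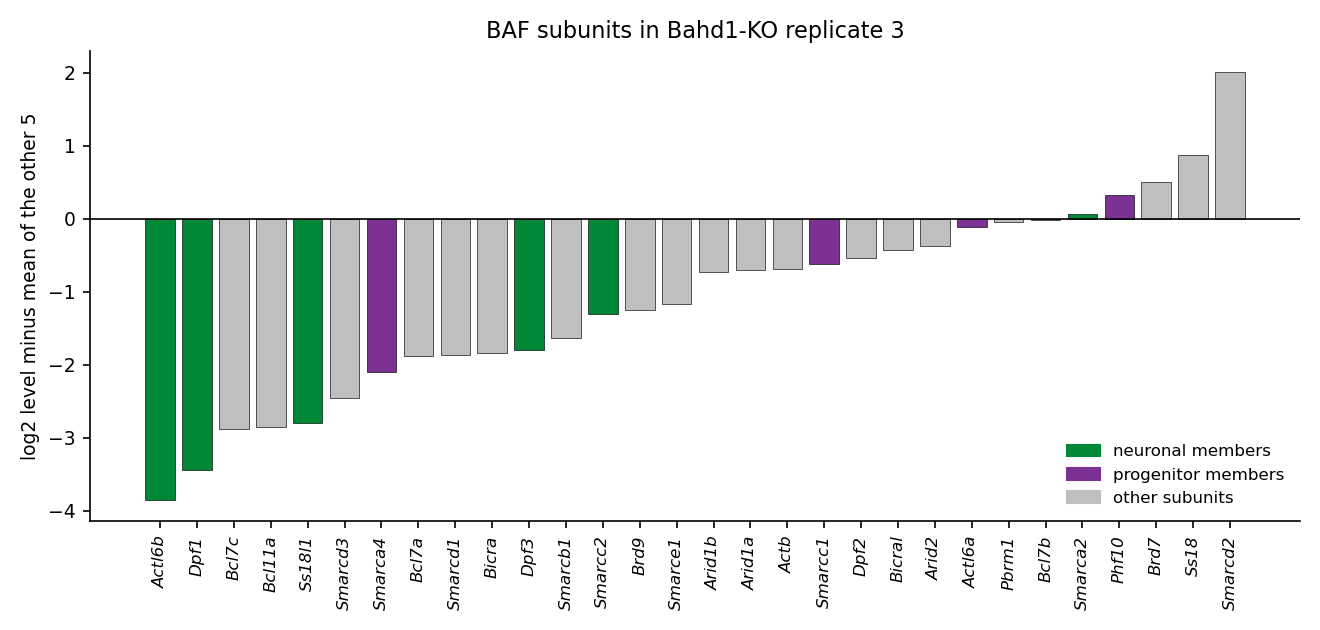
Difference between the log2 level in Bahd1-KO replicate 3 and the mean of the other 5 embryos for the 10 members (neuronal in green, progenitor in purple) and 20 further BAF subunits (grey), in ascending order; each bar is 1 gene. The neuronal members Actl6b (-3.85), Dpf1 (-3.45) and Ss18l1 (-2.80) are near the low end, Actl6a (-0.11) and Phf10 (0.33) near the high end, and Smarcd2 (2.01) is the highest.

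A smaller shift set the embryos numbered 1 apart from the rest in both genotypes. Taking the mean of Bahd1-KO and Bahd1-WT replicates 1 minus that of Bahd1-KO replicate 2 and Bahd1-WT replicates 2 and 3, Smarca4 differed by -0.999 on the log2 scale, Actl6b by -0.86 and Dpf1 by -0.75, whereas Phf10 differed by 0.35 and Smarca2 by 0.17. Across the 10 members this difference followed the GC content of the transcript, which ran from 42.4% in Phf10 to 57.6% in Dpf1, with a Spearman rho of -0.82. Across 10162 genes rho was -0.87. Genes of a library are not independent, and these are descriptions. The numbers do not mark a stated batch.

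A correction of each library for transcript GC content, chosen after the data were seen, narrowed most genotype differences. Smarca4 went from -1.05 to -0.66, Dpf1 from -0.92 to -0.49, Smarcc2 from -0.60 to -0.28 and Phf10 from 0.32 to 0.14 on the log2 scale, and Smarca2 turned from -0.07 to 0.13. Actl6b kept -0.70 of -0.83 and Ss18l1 -0.50 of -0.55. Among the log2 ratios, the genotype difference went from -1.80 to -1.05 for Dpf1 to Phf10 and from -1.22 to -0.77 for Dpf3 to Phf10. For Smarcc2 to Smarcc1 it went from -0.42 to -0.12, and for Smarca2 to Smarca4 from 1.16 to 0.88. It moved from -1.43 to -1.30 for Actl6b to Actl6a and from -1.38 to -1.16 for Ss18l1 to Ss18. With the correction and without Bahd1-KO replicate 3, the median over the members was -0.07 beside 0.01 over all genes, and Smarca4 (-0.35) was the largest in size. In Bahd1-KO replicate 3 the corrected levels of Actl6b, Dpf1 and Ss18l1 were still -3.54, -2.68 and -2.59 from the other 5.

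**Figure D5:**
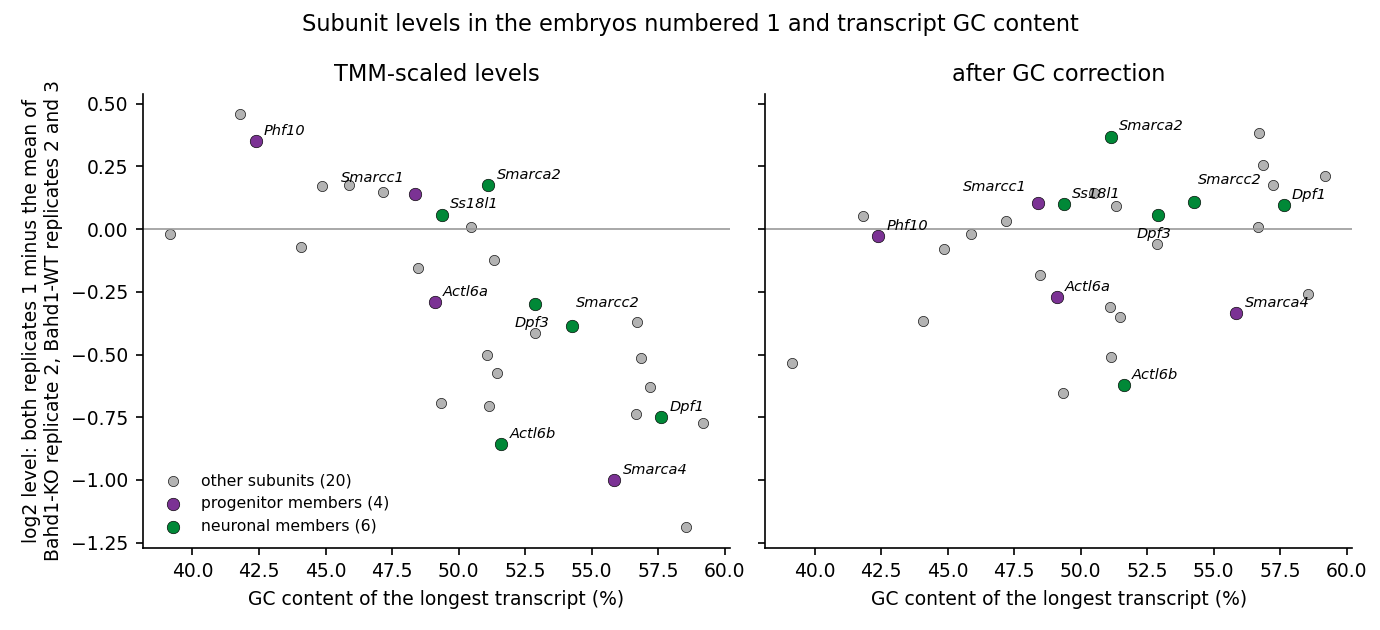
Log2 level in the 2 embryos numbered 1 minus the mean of Bahd1-KO replicate 2 and Bahd1-WT replicates 2 and 3, against the GC content of the longest transcript in percent, before (left) and after (right) a GC correction, for neuronal members (green), progenitor members (purple) and 20 further subunits (grey). Before correction the values descend from Phf10 (0.35 at 42.4%) to Dpf1 (-0.75 at 57.6%) and Smarca4 (-0.999 at 55.9%), and after it Dpf1 lies at 0.10 and Smarca4 at -0.34.

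No other subunit of the complex passed the test. Of 21 further subunits of the BAF, PBAF and non-canonical BAF complexes that were listed, 20 were found in the table. Of these, 0 of 20 were called by edgeR, where 0.00404% of all genes were, and 0 had an unadjusted p under 0.05, where 4.67% of all genes had. Their log2 fold change was positive in 4 and negative in 16, with a median of -0.43 beside 0.06 over all genes. Without Bahd1-KO replicate 3 the median was -0.30 beside -0.01. The 3 smallest unadjusted p-values belonged to Actb, the actin monomer of the complex (log2 fold change -0.66, and -0.54 without Bahd1-KO replicate 3), Bicra, the GLTSCR1 subunit of non-canonical BAF (-1.07, and -0.73 without it), and Arid1a, the DNA-binding subunit of canonical BAF (-0.50, and -0.36 without it), each with an adjusted p of 0.696 over all embryos. Bicra had 17.1, 32.9 and 8.75 CPM in Bahd1-KO replicates 1 to 3, against 21.5, 61.1 and 41.3 CPM in the 3 Bahd1-WT embryos, so that knockout replicate 2 lay inside the wild type range. In Bahd1-KO replicate 3 the 20 subunits had a median difference from the other 5 of -0.71, from -2.87 (Bcl7c) to 2.01 (Smarcd2), and 9 were below -1. The 10 members had a median of -1.55. Bcl7c, an accessory subunit named after its values were seen, was the 1 of 20 that was lower in every Bahd1-KO embryo (110, 127 and 17.5 CPM in replicates 1 to 3) than in every Bahd1-WT embryo (135.3, 134.9 and 135.7 CPM), as 2.24% of all genes were.

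Actl6a and Actl6b were also compared with all genes of at least 10 CPM for the likeness of their patterns over the 6 embryos, measured as the root mean square (RMS) difference of centred log2 levels. The 5 genes nearest to Actl6a among 10165 were Tgif2 (0.053), Rpia (0.073), Jam3 (0.075), Zfas1 (0.090) and Nsmce1 (0.095). Nearest to Actl6b were Hn1 (0.094), Rab33a (0.121), Ephb2 (0.128), Igsf9 (0.153) and Scrt2 (0.154). All 5 of the latter were low in Bahd1-KO replicate 3, by -3.69 to -3.93 on the log2 scale, so that this embryo weighs most in the likeness. For the genes near Actl6a the same difference was at most 0.15 in size. Nothing about shared function or control was measured.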

How the data were processed

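Per the labels, RNA of whole embryonic brain was extracted with a column kit that drops RNA under 200 nucleotides, and poly(A) RNA was sequenced as stranded libraries. The authors deposited raw counts per gene, made by strand-specific featureCounts on Ensembl GRCm38 genes after alignment. The submitters' processing notes name Cutadapt 1.11 and STAR 2.5.0a, while the methods also name another aligner. Embryos were not pooled. The methods name technical replicates of sequencing, and how these were combined into the deposited column of each embryo is not stated. Counts of 53801 genes in 6 libraries were used as deposited. Genes with at least 10 counts in all were tested with edgeR 4.0.16 (TMM, quasi-likelihood, genotype only, R 4.3.3), and p-values were adjusted by Benjamini-Hochberg over all genes. DESeq2 1.42.0 and limma 3.58.1 (voom with sample weights) served as alternatives. The edgeR fit was also run on simulated counts with the same spread setting for all genes and no outlying library. That run does not show what the fit can detect in these data. Exon lengths (all annotated exons of a gene merged) and transcript GC content (longest transcript) came from GENCODE M21, and sequences from RefSeq. For ratios 1 was added to each count. The GC correction subtracted a lowess curve (span 0.3) per library.

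The members and gene lists were chosen with earlier results of these data known. Named genes were Bahd1, all 10 members, Ss18, Dpf2, further subunits past the threshold or else the 3 with the smallest p, any regulator, dendrite or marker gene past the threshold, the 3 most abundant genes of the neuron and progenitor lists, and the 5 genes most like Actl6a and Actl6b. Other genes were named after their values were seen. Replicates are separate embryos per the labels, which do not give their litters.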

Additional observations from a re-analysis of the deposited data

How the results depend on the processing

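No subunit was called under any of 20 alternatives. The main edgeR fit had little power, since the deleted gene Bahd1 (log2 fold change -8.40) had an adjusted p of only 0.046 in it. Bahd1 was itself not called in several edgeR alternatives, for example with the replicate block (0.229) and without Bahd1-WT replicate 3 (0.685). In others its adjusted p was far smaller, at 1.53e-48 with DESeq2 and 0.00082 with voom. It was 1.55e-05 in edgeR with the GC correction and without Bahd1-KO replicate 3. Over 200 member values the smallest adjusted p was 0.235 and 6 changed sign. Smarca2 became 0.048 with upper-quartile scaling, 0.00081 without Bahd1-KO replicate 2 (the range on leaving out 1 embryo being -0.13 to 0.00081), 0.13 with the GC correction and 0.11 with that and the replicate block, and Actl6a became 0.11 without Bahd1-WT replicate 3 (range -0.37 to 0.11) and 0.12 with the block and without Bahd1-KO replicate 3. Scaling moved the median of all genes, from 0.06 to 0.17 with upper quartiles and -0.11 with total counts. The 60 alternative values of the ratios kept their direction, and none could reach 0.05. Over all genes the number called was 1 and became 8 with DESeq2, 6 with voom, 0 without untailed and mitochondrial RNAs, 0 to 4 when 1 embryo was left out (4 without Bahd1-KO replicate 3), 11 with DESeq2 without that embryo and 6 with the GC correction without it. Same-numbered embryos correlated at 0.21, 0.32 and -0.11, and embryos of different numbers at -0.49 to 0.35. These are correlations of deviations from genotype means that include Bahd1-KO replicate 3. They therefore cannot decide whether the numbers pair the samples. With the replicate block 0 genes were called, 0 with block and GC correction, and 16 with the block without Bahd1-KO replicate 3. The GC correction, the DESeq2 fit and the block without that embryo were added after seeing the data. Litter and library preparation could not be told apart from the genotype here, and 3 embryos a group limit every comparison.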

Other observations

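Genes known to set or follow the exchange of BAF subunits were read in the same 6 embryos. Of these, 0 of 8 tested regulators and 0 of 5 genes of dendrite and axon growth were called between the genotypes (edgeR adjusted p under 0.05), and 0 had an unadjusted p under 0.05. Among the 8, the microRNA precursors Mir9-1 and Mir124a-2 had at most 11 and 5 counts in an embryo. The 8 also mix repressors such as Rest with host transcripts of neuronal microRNAs, so their median has no single meaning. The median log2 fold change was -0.21 for the regulators and -0.06 for the growth genes, and without Bahd1-KO replicate 3 it was 0.05 and -0.14, so that the sign for the regulators turned with that library. The genes named here were chosen after their values were seen. Rest, the repressor of neuronal genes, had 77.2 CPM in Bahd1-KO replicate 3 and 22.9 to 29.4 CPM in the other 5 embryos. The host transcripts of neuronal microRNAs were low in that embryo. Mir124-2hg had 18.1 CPM against 111 to 196 CPM, Mir124a-1hg had 32.9 CPM against 118 to 165 CPM, and Mir9-3hg had 3.95 CPM against 18.2 to 28.5 CPM. Ptbp2, the splicing repressor of young neurons, had 116 CPM against 379 to 651 CPM, while its relative Ptbp1, of progenitors, had 109 CPM against 40.0 to 84.4 CPM. Mature microRNAs are too short for these libraries and were not measured.

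Neuronal transcripts in Bahd1-KO replicate 3 did not all share the low level of Actl6b, Dpf1 and Ss18l1. Gap43, a protein of growth cones, had 55.3 CPM against 527 to 770 CPM, and Tubb3, the neuronal tubulin, had 26.1 CPM against 364 to 1556 CPM. The synaptic vesicle genes Syt1 and Syp had 386 and 274 CPM, inside the ranges of 268 to 468 CPM and 211 to 291 CPM of the other 5. Snap25, of the release machinery, was higher, at 910 CPM against 154 to 285 CPM. Among progenitor genes, Sox2 had 14.0 CPM against 60.7 to 99.8 CPM and Eomes had 5.23 CPM against 57.1 to 105 CPM, although Mki67 and Top2a were high. What the library held besides brain was not tested.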
